A study of Sus scrofa with 30 samples.

Results

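Solute carriers are the largest superfamily of membrane transporters, and their genes carry the root symbol SLC followed by a family number. The genes described here were the probe sets of a porcine expression array whose single gene symbol starts with SLC and a digit, leaving out SLC2A3, SLC1A3 and SLC37A4, with the brightest probe set standing for each gene. This gave 118 genes in 37 families, measured by 175 probe sets, of 6790 genes with 1 symbol on the array. Of the 118, 92 genes in 30 families were bright enough to be tested and 26 lay below the intensity filter. The symbol also takes in 3 genes whose products are not transporters, the transcriptional regulator SLC2A4RG and the scaffold proteins SLC9A3R1 and SLC9A3R2.

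Solute carriers move their substrates either down a gradient or by coupling them to sodium, proton or chloride gradients. The coupled carriers of the plasma membrane depend on the ion pumps for their driving force. In the cortex solute carriers bring glucose, lactate and amino acids across the blood-brain barrier, clear glutamate from the synapse, recycle glutamine, and hold intracellular pH and chloride. A large branch, the SLC25 family, exchanges nucleotides, phosphate, citrate and acylcarnitines across the inner mitochondrial membrane, and the SLC35 family brings nucleotide sugars into the Golgi. When blood flow stops the ion gradients run down and plasma membrane carriers such as the glutamate transporters can run in reverse.

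The study asked how methylene blue alters the transcript response of pig cerebral cortex to cardiac arrest and resuscitation. The animals were Swedish triple breed farm pigs of both sexes, 12 to 14 weeks old and prepubertal, weighing 25.8 kg on average, all under pentobarbital, and in all of them ventricular fibrillation was induced with an electric current. Cortex was taken at 0 min of arrest in the control group (CA0) and after arrest left untreated for 5, 20 or 30 min (CA5, CA20, CA30). The other 6 groups were resuscitated after 12 min without circulation, with mechanical chest compression for 8 min and a countershock, and brains were removed 30, 60 or 180 min after spontaneous circulation returned. These animals were infused with saline at 55 ml/kg/h (SAL30, SAL60, SAL180) or with the same saline carrying methylene blue at 7.5 mg/kg/h (MB30, MB60, MB180), a redox-active dye known to block nitric oxide synthase and soluble guanylate cyclase. The infusion ended 50 min after spontaneous circulation returned. The 30 min groups were thus sampled during it and the 60 and 180 min groups after it. Even the CA0 animals had thus been anaesthetised and fibrillated. Each group had 3 arrays, which the labels call biological replicates, and the p-values measure the spread between these arrays.

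The arrays were scaled to a common trimmed mean, and the unit of every level below is the array's arbitrary intensity unit. Levels of different genes are not compared, since each probe set has its own brightness. The 9 methylene blue arrays separated from the other 21 on the first principal component, which held 25.6% of the variance. The log2 ratio of 3' to 5' signal of the GAPDH and ACTB control probe sets, a measure of transcript integrity and labelling length, ran from 1.01 to 1.73 on the methylene blue arrays, from 1.32 to 3.14 on the saline arrays and from 1.38 to 3.21 on the untreated arrays. Among the 30 arrays, 5 stood apart: SAL30 replicate 1 on the second principal component, and CA20 replicates 2 and 3, SAL60 replicate 2 and SAL180 replicate 3 with the highest 3' to 5' ratios. The labels name no processing batch, so a batch that coincides with a group cannot be told apart from it. Defining markers of neurons, astrocytes, oligodendrocytes, microglia and endothelium that are on the array all lay above the filter, while the choroid plexus marker TTR stood at 11962 on CA20 replicate 2 and at 1.26 to 193 on the other arrays. The samples are whole tissue, so fewer cells of a type and less RNA per cell cannot be told apart.

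The tested genes were grouped by family and role. There were 20 genes of the SLC25 family, nearly all of them mitochondrial carriers, 14 genes of the SLC2, SLC5, SLC45 and SLC50 families, 13 metal carriers, 10 genes of the SLC35 family, 5 glutamate and neutral amino acid carriers of the SLC1 family and 4 genes of heteromeric and cationic amino acid carriers. Most of the SLC2, SLC5, SLC45 and SLC50 genes encode hexose carriers, but SLC2A4RG, the iodide carrier SLC5A5 and the vitamin carrier SLC5A6 are among them. The bicarbonate and chloride carriers had 4 tested genes, the SLC9 exchanger group 3 (SLC9A5 and both scaffolds), the neutral amino acid carriers of the SLC38 family 3 and the organic ion carriers 3. A single gene stood for the monocarboxylate carriers (SLC16A13) and for the SLC6 family (SLC6A8), and 11 genes belonged to other families. None of the SLC28 and SLC29 nucleoside carriers was bright enough, nor were SLC17A1 and SLC34A2. The 26 genes below the filter were SLC2A2, SLC4A2, SLC6A4, SLC6A14, SLC7A4, SLC7A9, SLC8A1, SLC8B1, SLC9A3, SLC9A4, SLC10A1, SLC15A1, SLC16A3, SLC17A1, SLC22A2, SLC22A8, SLC23A1, SLC23A2, SLC25A51, SLC26A3, SLC28A1, SLC28A3, SLC29A1, SLC34A2, SLC36A2 and SLC44A4. Of a set of 30 transporters best known in brain, 15 were on the array and 13 were tested.

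Untreated arrest was compared with the control first. After 5, 20 and 30 min without circulation no solute carrier gene passed the test, 0 of 92 each time, where 0%, 0.0119% and 0.0119% of all probe sets passed. These 3 comparisons share the CA0 arrays. Unadjusted limma p-values were under 0.05 for 3, 3 and 4 of the 92 genes and for 1.89%, 4.24% and 4.06% of all probe sets. Arrest and control arrays did not overlap for 9, 12 and 12 genes (9.78%, 13% and 13%). Random order alone separates 3 arrays from 3 with a probability of 0.1, so a lack of overlap at 1 time is common. The share over all probe sets is not given here, so these counts are not read as a result about the members. The median log2 difference of the 92 was -0.004, -0.001 and 0.023, beside 0.006, 0.006 and 0.015 over all probe sets tested. The 5 SLC1 genes had log2 differences from -0.29 to 0.15 over the 3 arrest times, and the 20 SLC25 genes from -0.35 to 0.47.

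Among the genes with the smallest p-values was SLC2A4, the insulin-responsive glucose transporter GLUT4. Its intensity was 26.3, 34.4 and 25.9 in CA0, 54.7, 42.8 and 43.3 in CA5, 45.3, 66.9 and 53.9 in CA20 and 36.4, 46.3 and 56.3 in CA30. Each of the 9 arrest arrays lay above the 3 control arrays, but the log2 difference at 20 min, 0.66 ± 0.22 (SE), had a limma adjusted p of 0.997. SLC35F6, of the SLC35 family, stood at 391, 354 and 379 in CA0 and at 321, 267 and 258 in CA5. The 5 min arrays were all lower than the controls, with a log2 difference of -0.40 ± 0.16 and an adjusted p of 1.

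The widest single difference at 20 min belonged to SLC5A5, the sodium-iodide symporter. Its intensity in CA20 was 115, 998 and 82.5, against 117, 16.1 and 21.6 in CA0. The high value came from replicate 2, the same array on which TTR stood at 11962, and the part of choroid plexus tissue in it was not tested. The log2 difference of 2.12 ± 0.90 had an adjusted p of 0.997. At 30 min SLC2A5, the fructose transporter GLUT5, which in brain is best known from microglia, stood at 78.1, 55.2 and 76.1 against 89.2, 129 and 143 in CA0. The groups did not overlap, and the difference of -0.66 ± 0.26 (log2) missed the threshold (adjusted p = 0.985). SLC31A2, a copper transporter, gave a like value of -0.66 ± 0.26 with an adjusted p of 0.985. SLC35F6 at 30 min was -0.43 ± 0.16 from CA0 and SLC25A33 at 20 min -0.28 ± 0.13; neither passed (adjusted p = 0.985 and 0.997). SLC9A3R2 gave a difference of -0.52 ± 0.22 at 5 min with an adjusted p of 1.

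Resuscitation with saline was compared with CA0 at each time and then, over all times, with untreated arrest. No solute carrier gene passed at 30, 60 or 180 min, 0 of 92 each time, where 0.196%, 0.315% and 0.875% of all probe sets passed. Unadjusted p-values were under 0.05 for 8, 3 and 5 genes and for 7.38%, 6.3% and 8.73% of all probe sets. The saline and CA0 arrays did not overlap for 12, 9 and 16 of the 92 genes (13%, 9.78% and 17.4%). The share over all probe sets is not given here, so these counts are not read as a result about the members. In the comparison of the 9 saline arrays with the 12 untreated arrays 1 gene passed, SLC2A5, where 1.5% of all probe sets passed. The lowest adjusted p at a single time was 0.181, for SLC35F6 at 30 min, when its intensity was 196, 266 and 259 against 391, 354 and 379 in CA0.

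The level of SLC2A5 was 337, 123 and 138 in SAL30, 139, 128 and 103 in SAL60 and 181, 134 and 221 in SAL180. Over the 12 untreated arrays it ran from 55.2 to 145 with a median of 103. The saline and untreated ranges overlapped, and the highest value by far was SAL30 replicate 1. The mean of the saline groups was 1.48-fold higher, a log2 difference of 0.56 ± 0.14 with an adjusted p of 0.033. Without SAL30 replicate 1 the difference was 0.42 with an adjusted p of 0.0697, and the count of members passing was also 0 without CA0 replicate 1, CA5 replicate 1 or 2, CA20 replicate 1, CA30 replicate 2, SAL60 replicate 1 or 2, or SAL180 replicate 1 or 3. On SAL30 replicate 1 the 3 microglial markers on the array (TYROBP, AIF1 and C1QA) summed to 2253, against 746 to 1295 on the other saline arrays and 749 to 1312 on the untreated arrays.

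The same array carried the lowest value of SLC30A3, ZnT3, which loads zinc into the synaptic vesicles of glutamatergic neurons. SLC30A3 stood at 96.3, 648 and 716 in SAL30, at 663, 843 and 807 in SAL60 and at 1117, 888 and 656 in CA0. Replicate 1 was thus alone in its low level, and the other SAL30 arrays lay near those of SAL60. The log2 difference of -1.22 ± 0.39 had an adjusted p of 0.499, and without replicate 1 it was -0.34 with an adjusted p of 0.998. The second probe set of SLC30A3 had a log2 difference of -0.25 ± 0.31 at the same time.

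Several other carriers had small p-values under saline without passing. SLC33A1, which brings acetyl-CoA into the endoplasmic reticulum, stood at 174, 196 and 289.7 in SAL30 and 339, 293 and 305 in CA0, with no overlap, a log2 difference of -0.51 ± 0.17 and an adjusted p of 0.551. SLC45A3, a sugar transporter known from oligodendrocytes, stood at 60.4, 76.1 and 42.6 in CA0 and at 78.9, 83.3 and 132 in SAL180. Its saline arrays at 180 min were all above the controls, and the log2 difference of 0.59 ± 0.21 had an adjusted p of 0.301. Over all saline against all untreated arrays the SLC45A3 difference was 0.41 ± 0.12 with an adjusted p of 0.0864. SLC1A4 at 180 min stood at 20.7, 61.4 and 39.2 against 78.4, 80.2 and 66.6, lower on every array, with a log2 difference of -0.75 ± 0.27 and an adjusted p of 0.28. At 60 min SLC35A3 was 0.51 ± 0.19 from CA0, SLC45A3 0.45 ± 0.21 and SLC2A4RG -0.38 ± 0.18, with adjusted p-values of 0.616, 0.779 and 0.78. SLC33A1 over all saline against all untreated arrays was -0.31 ± 0.09 (adjusted p = 0.129).

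The methylene blue groups were the only ones in which solute carrier genes passed against CA0. At 30 min 11 of 92 passed, 8 higher and 3 lower, where 12.2% of all probe sets passed, 7.58% higher and 4.59% lower. At 60 min 9 passed, 6 higher and 3 lower, beside 12.5%, 7.05% higher and 5.49% lower. At 180 min 10 passed, 7 higher and 3 lower, beside 9.41%, 5.7% higher and 3.71% lower. The members' shares, 12%, 9.78% and 10.9%, were thus near the background. The 3 comparisons share the CA0 arrays, so each gene's values are given side by side. SLC2A4, SLC35A3 and SLC23A3, higher, and SLC35F6, lower, passed at each of the 3 times. SLC11A1, counted as higher at 30 and 180 min, entered the test only through the methylene blue arrays.

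At 30, 60 and 180 min SLC2A4 was 1.47, 1.14 and 1.15 from CA0 on the log2 scale (SE 0.22), with adjusted p-values of 0.000193, 0.00208 and 0.0022. SLC3A1, the heavy chain of a cystine transporter, was 2.0, 1.99 and 1.51, with adjusted p-values of 0.0279, 0.0264 and 0.101. Its CA0 arrays stood at 252, 356 and 299.7, below all 9 methylene blue arrays. With the 3' to 5' ratio as a covariate SLC3A1 did not pass at 30 min (0.76, adjusted p = 0.37) or at 60 min (0.93, adjusted p = 0.246). SLC35F6 stood at 254, 199.8 and 226 in MB30, 216, 233 and 257 in MB60 and 279, 219.8 and 242 in MB180, all below the CA0 arrays given above. Its differences were -0.69, -0.64 and -0.58, beside -0.62, -0.23 and -0.12 in the saline groups, which did not pass. Its second probe set was not lower, with a median of 69.9 over the untreated arrays and 82.0 over the methylene blue arrays. SLC9A5, a neuronal sodium-proton exchanger, passed at 30 min alone (1.22 ± 0.35, adjusted p = 0.0235), SLC25A36, a mitochondrial nucleotide carrier, at 60 min alone (1.24 ± 0.29, adjusted p = 0.00763), and the difference between times was not tested for these contrasts.

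With the 3' to 5' ratio as a covariate 4, 3 and 7 members passed against CA0 at 30, 60 and 180 min. For this setting and those that follow, the share of all probe sets is not given here. The counts are thus not read as results about the members. The direction split depended on the scaling of the arrays. Centring each array on its median moved the median of all probe sets by -0.183 (30 min), -0.135 (60 min) and -0.169 (180 min). The 30 min split then became 6 up and 16 down, the 60 min split 5 up and 10 down, and the 180 min split 1 up and 6 down. Quantile normalization gave 5 and 5, 6 and 7, and 2 and 4. Single arrays also moved these counts by more than 1.5 times. The 30 min total was 6 without CA0 replicate 1, 7 without CA0 replicate 2 or 3, 7 without MB30 replicate 2 and 4 without MB30 replicate 3. The 60 min total was 5 without MB60 replicate 3. The 180 min total was 4 without CA0 replicate 1, 2 without MB180 replicate 2 and 6 without MB180 replicate 3.

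**Figure D1:**
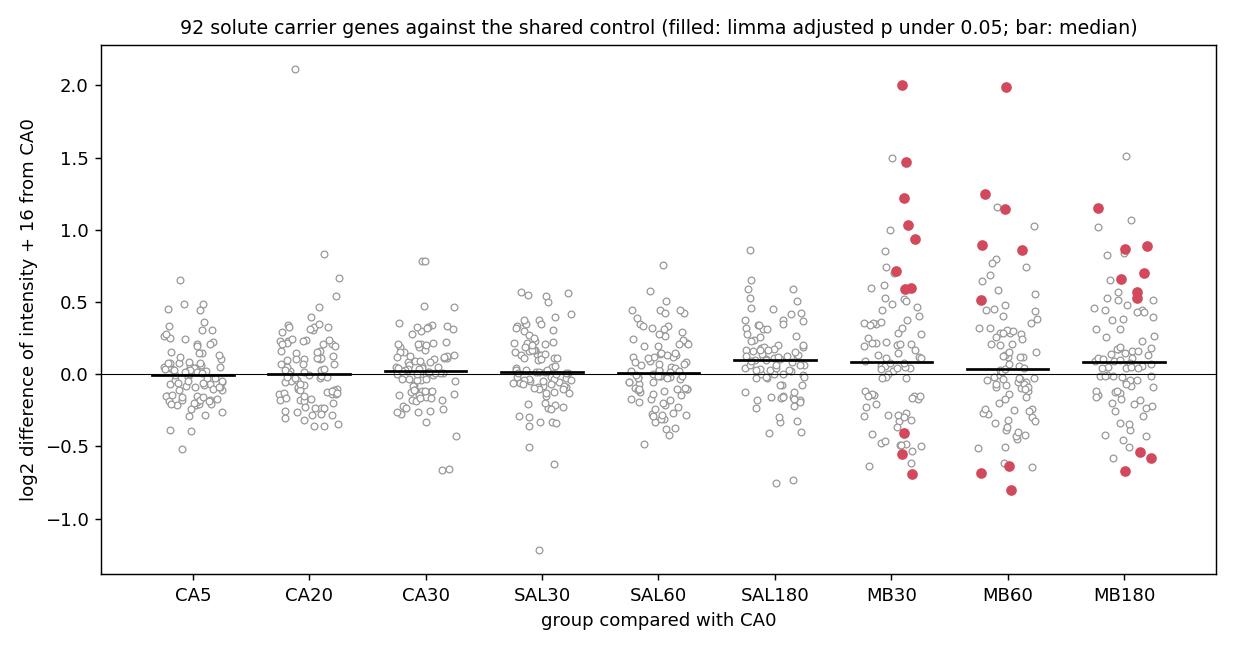
Log2 difference of intensity + 16 from CA0 (vertical axis) for the 92 tested solute carrier genes in each of the other 9 groups (horizontal axis); each point is a gene, filled where the limma adjusted p was under 0.05, and the bar is the median of the 92. Filled points appear only in the 3 methylene blue groups, with 11, 9 and 10 genes, and all 9 groups share the same CA0 arrays.

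Other genes passed against CA0 without passing against saline at that time. SLC50A1, the sugar transporter SWEET1, stood at 114, 98.6 and 107 in CA0, 128, 139.7 and 181 in SAL180 and 197, 145 and 145 in MB180. All MB180 arrays were above all CA0 arrays and overlapped with SAL180, and the log2 difference was 0.53 ± 0.15 from CA0 (adjusted p = 0.032) and 0.11 ± 0.15 from SAL180 (adjusted p = 0.765). SLC45A3 at 180 min was likewise 0.70 ± 0.21 from CA0 (adjusted p = 0.0387) and 0.12 ± 0.21 from SAL180 (adjusted p = 0.832). SLC46A3, a lysosomal membrane transporter, stood at 56.9, 128 and 107 in MB180 against 57.6, 50.9 and 27.0 in CA0. Of its MB180 arrays 2 were far above CA0 and 1 lay within its range, with a log2 difference of 0.87 ± 0.25 from CA0 (adjusted p = 0.029) and a nearly as wide one of 0.69 ± 0.25 from SAL180 (adjusted p = 0.133). SLC25A33, a mitochondrial pyrimidine nucleotide carrier, stood at 1395, 1332 and 1316 in MB30 against 1957, 1696 and 1722 in CA0, lower on every array, with a difference of -0.40 ± 0.13 (adjusted p = 0.0413) from CA0 and -0.20 ± 0.13 from SAL30.

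Methylene blue was then compared with saline, the resuscitated groups that the labels distinguish by the drug alone. Over the 3 times 25 of the 92 genes passed, 27.2%, where 25.2% of all probe sets passed, so the share was near the background. Of the 25, 11 were higher with methylene blue (13.8% of all probe sets) and 14 lower (11.4%). The median log2 difference of the 92 was 0.049, beside 0.024 over all probe sets. The highest gene was SLC3A1 and next came SLC2A4, SLC1A4 and SLC25A36, and the lowest were SLC25A30, SLC38A9 and SLC12A4. The methylene blue arrays also had the lower 3' to 5' ratios given above. With that ratio as a covariate 14 of the 25 passed (9 higher, 5 lower), where 9.52% of all probe sets did, and without the 5 arrays that stood apart 18 passed (11 higher, 7 lower), where 14.9% did. With the brightest probe set kept, 12 of the 25 passed under every alternative that tested them: SLC1A4, SLC2A4, SLC3A1, SLC11A1, SLC12A4, SLC23A3, SLC25A6, SLC25A24, SLC25A30, SLC35A3, SLC38A1 and SLC38A9. For SLC38A1 and SLC38A9 another probe set passed in the opposite direction. Of the other 13, SLC2A5 did not pass under 29 of 43 alternatives, SLC11A2 under 14, SLC25A14 and SLC46A1 under 13 each, and the rest under 1 to 3. SLC6A8, SLC9A3R1, SLC11A2, SLC25A14, SLC35B2, SLC39A7 and SLC46A1 passed but lay outside the naming rule and are described with their values already seen. Among the 12, SLC1A4, SLC2A4, SLC11A1 and SLC35A3 were too dim to be tested with the stricter intensity filter. SLC11A1, also counted among the 11 higher genes, entered the main test only through the methylene blue arrays, where it was high.

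Some cell type markers also differed between the same arrays, in no larger share than over all probe sets. Of 33 tested marker genes 4 were higher with methylene blue and 2 lower, where 13.8% of all probe sets were higher and 11.4% lower. The fibroblast and meningeal markers COL3A1 (0.87 ± 0.22, adjusted p = 0.00494) and DCN (0.55 ± 0.21, adjusted p = 0.0495), the neuronal SYT1 (0.31 ± 0.09, adjusted p = 0.0147) and the endothelial CDH5 (0.31 ± 0.11, adjusted p = 0.0309) were higher. The microglial TYROBP and the astrocytic GLUL were lower, and their values stand beside the genes they bear on. Among the endothelial, neuronal and astrocytic markers some went the other way without passing. These were VWF (-0.34 ± 0.19, adjusted p = 0.192), CLDN5 (-0.21 ± 0.14, adjusted p = 0.275), STMN2 (-0.03 ± 0.07, adjusted p = 0.808) and GJA1 (0.10 ± 0.08, adjusted p = 0.374). The 5 neuronal markers summed to 27794 to 38056 on the saline arrays and 29906 to 49715 on the methylene blue arrays, the 5 meningeal ones to 6913 to 8663 and 6185 to 10409.5, and the 6 endothelial ones to 933 to 1873 and 902 to 1721, so the summed levels overlapped. The part of cell composition in the solute carrier differences was not tested.

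**Figure D2:**
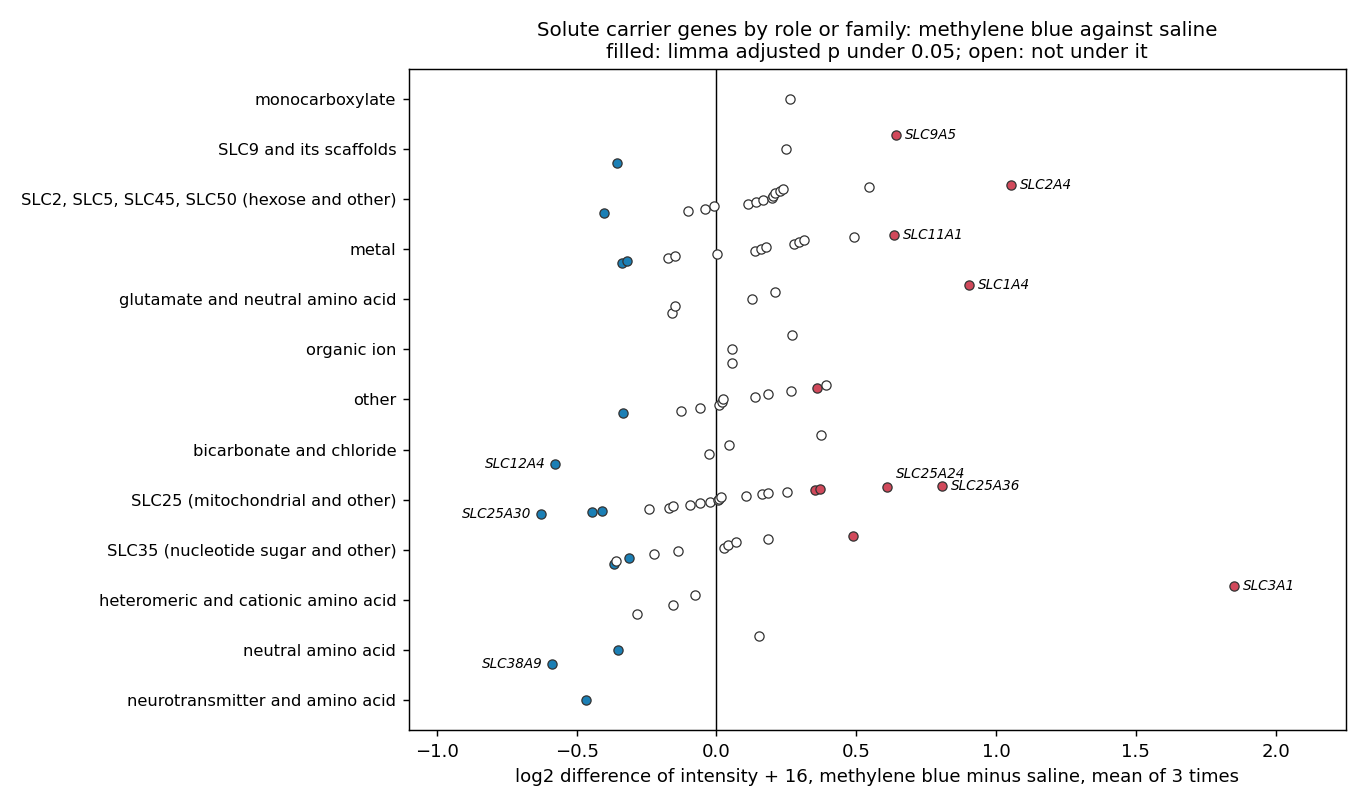
Log2 difference of intensity + 16 between methylene blue and saline, averaged over the 3 times (horizontal axis), for the 92 tested genes by role or family (vertical axis, ordered by the median); filled points passed at a limma adjusted p under 0.05, and genes beyond 0.55 in either direction are named. Called genes are scattered over most groups in both directions, from SLC25A30 at -0.63 to SLC3A1 at 1.85.

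Among the 14 genes of the SLC2, SLC5, SLC45 and SLC50 families 1 rose and 1 fell, where 13.8% of all probe sets rose and 11.4% fell. Their median log2 difference was 0.182, or 0.198 over the 11 left without SLC2A4RG, SLC5A5 and SLC5A6. SLC2A4 stood at 39.1, 21.7 and 28.7 in SAL30 and at 104, 123 and 97.7 in MB30. It stood at 58.3, 39.0 and 26.7 in SAL60 and 84.9, 75.3 and 88.1 in MB60, and at 21.6, 48.8 and 46.6 in SAL180 and 69.6, 84.2 and 97.8 in MB180. All 9 methylene blue arrays were above all 9 saline arrays and above all 12 untreated arrays, whose highest value was 66.9, and SLC2A4 was the 1 member of the 92 whose saline and methylene blue arrays did not overlap at all, as for 1.95% of all probe sets. It was 2.08-fold higher, a log2 difference of 1.05 ± 0.13 (SE), with an adjusted p of 5.01e-06. At single times the differences were 1.45 ± 0.22 (adjusted p = 0.000853), 0.82 ± 0.22 (adjusted p = 0.0599) and 0.89 ± 0.22 (adjusted p = 0.0359). Of the 3 probe sets of SLC2A4 only the brightest, used here, lay above the filter, so no second probe set was compared. The regulator SLC2A4RG, named for this gene, differed by 0.11 ± 0.11 (adjusted p = 0.462).

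Of the other glucose transporters SLC2A1 (GLUT1), the main carrier of the blood-brain barrier, ran from 841 to 1238 with a median of 995 over the saline arrays and from 853 to 1423 with a median of 1055 over the methylene blue arrays. The ranges overlapped broadly, and the difference of 0.17 ± 0.08 (log2) missed the threshold (adjusted p = 0.117). SLC2A5 was 1.32-fold lower with methylene blue, a log2 difference of -0.40 ± 0.15 with an adjusted p of 0.0485. Without SAL30 replicate 1 the difference was -0.26 (adjusted p = 0.117), and it did not pass under 29 of 43 alternatives, most of which left out a single array. SLC5A4, of the sodium-coupled sugar carriers, differed by 0.20 ± 0.12 (adjusted p = 0.223).

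**Figure D3:**
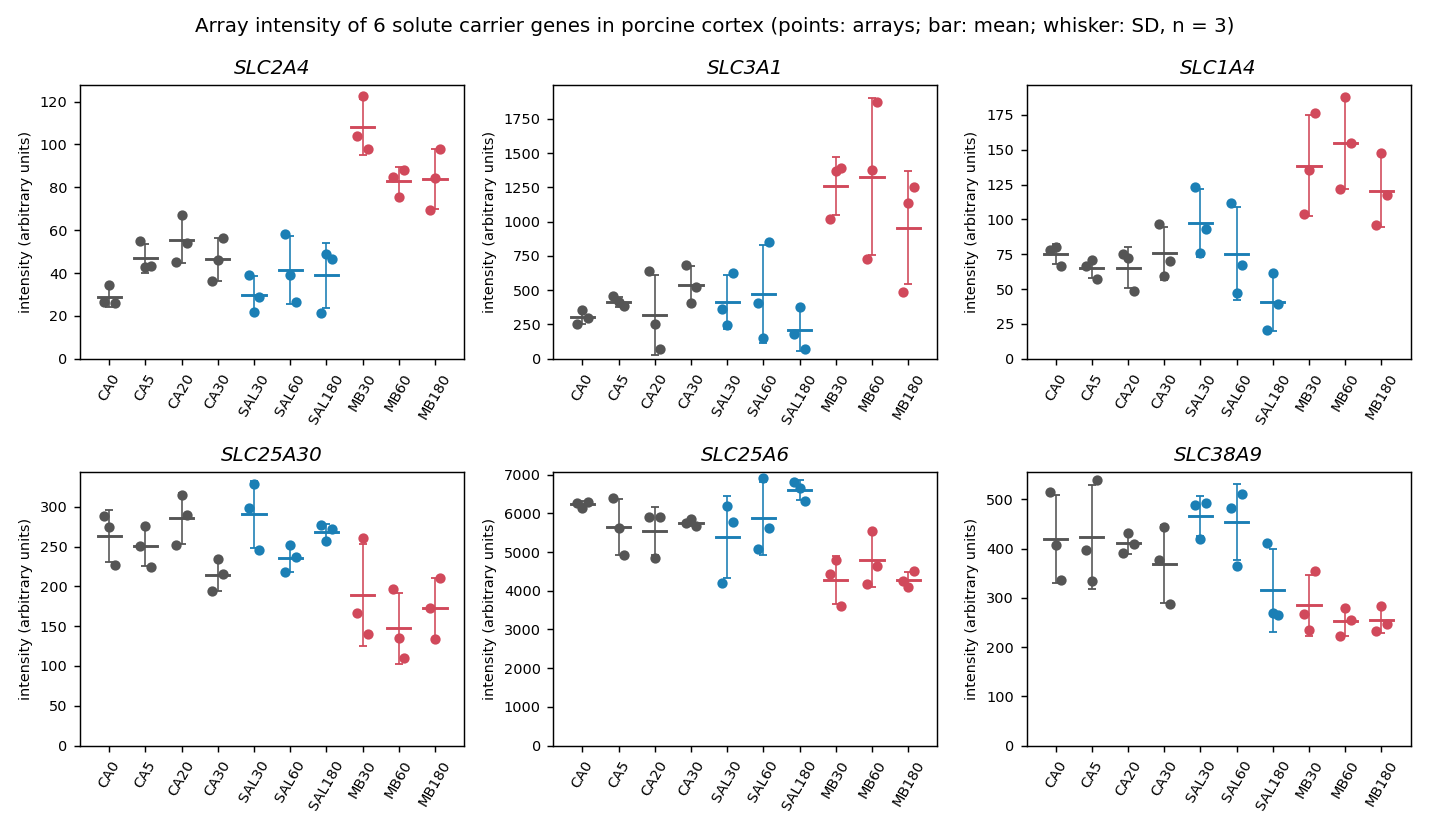
Intensity in arbitrary units (vertical axes, from 0) of 6 solute carrier genes on each array of the 10 groups (horizontal axes); points are arrays, bars are means and whiskers SD, n = 3. In SLC2A4 the methylene blue arrays start at 69.6 and the saline arrays end at 58.3, while in the other 5 genes the ranges of the 2 treatments overlap.

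Of the amino acid carriers, 2 of 12 tested genes in the SLC1, SLC3, SLC7 and SLC38 families rose and 2 fell. Over all probe sets 13.8% rose and 11.4% fell. SLC3A1, the heavy chain of the cystine and dibasic amino acid transporter, stood at 364, 248 and 628 in SAL30 and 1017, 1373 and 1389 in MB30. In the 60 min groups it was 408, 155 and 855 with saline against 729.9, 1380.5 and 1877 with methylene blue. At 180 min it was 181, 375 and 73.3 against 485, 1136 and 1252. Of the 9 methylene blue arrays 7 lay above every saline array, and the spread between arrays of a group was wide. SLC3A1 was 3.61-fold higher, a log2 difference of 1.85 ± 0.34 with an adjusted p of 0.000421. With the 3' to 5' ratio as a covariate the difference was 1.02 with an adjusted p of 0.0202. Its light chain partner, SLC7A9, lay below the filter.

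SLC1A4, the neutral amino acid transporter ASCT1, which carries serine and alanine, rose. It stood at 124, 75.7 and 93.2 in SAL30 and 104, 136 and 176 in MB30, and at 112, 47.5 and 67.0 in SAL60 and 122, 188 and 155 in MB60. At 180 min it was 20.7, 61.4 and 39.2 in SAL180 and 96.2, 147 and 117 in MB180. The arrays overlapped at 30 min and did not at 60 and 180 min. The log2 differences were 0.44 ± 0.27, 0.94 ± 0.27 and 1.32 ± 0.27, with adjusted p-values of 0.345, 0.0705 and 0.0123. Over the 3 times SLC1A4 was 1.87-fold higher (0.90 ± 0.15, adjusted p = 0.000216), and the test of whether the difference varied between times was not passed by any member.

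The glutamate transporters proper did not pass by their brightest probe sets. SLC1A2, the main astrocytic glutamate transporter EAAT2, ran from 3134 to 5858 with a median of 4869 over the saline arrays and from 3780.1 to 7164 with a median of 5228 over the methylene blue arrays, a log2 difference of 0.13 ± 0.11 (adjusted p = 0.426). SLC1A1, the neuronal EAAT3, differed by 0.21 ± 0.09 (adjusted p = 0.0912), and SLC1A5, ASCT2, by -0.16 ± 0.11 (adjusted p = 0.307). The cationic amino acid transporter SLC7A1 differed by -0.08 ± 0.07 (adjusted p = 0.48). SLC3A2, the heavy chain 4F2hc shared by several light chains, differed by -0.28 ± 0.25 (adjusted p = 0.429), with values from 102 to 459 with a median of 281 over the methylene blue arrays alone.

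The SLC38 family, which moves glutamine and related amino acids, had 2 of its 3 tested genes lower, where 11.4% of all probe sets were. SLC38A9, a lysosomal arginine transporter that signals to mTORC1, stood at 489, 420.2 and 492 in SAL30 and 267, 234 and 355 in MB30. At 60 min it was 483, 366 and 511 against 222, 279 and 256. The 180 min groups were 411, 269 and 264 against 233, 283 and 247. The treatments did not overlap at 30 and 60 min and overlapped at 180 min, when 2 saline arrays were also low. SLC38A9 was 1.5-fold lower over the 3 times (-0.59 ± 0.11, adjusted p = 0.000731). SLC38A1, the neuronal glutamine transporter SNAT1, ran from 993 to 1359 with a median of 1088 over the saline arrays and from 706 to 1479.6 with a median of 828 over the methylene blue arrays. There 8 methylene blue arrays lay below every saline array and MB30 replicate 1 lay above all of them, and the log2 difference was -0.35 ± 0.09 (adjusted p = 0.0072). In both genes another probe set went the other way, as given further on.

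SLC6A8, the creatine transporter, fell. It ran from 699 to 1400.4 with a median of 897 over the saline arrays and from 485 to 798 with a median of 672 over the methylene blue arrays, with 5 of the 9 methylene blue arrays below every saline array. The log2 difference was -0.47 ± 0.12 (adjusted p = 0.00798). It did not pass with the 3' to 5' ratio as a covariate (adjusted p = 0.146) or without the 5 arrays that stood apart (adjusted p = 0.0902).

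The 20 SLC25 genes, most of them mitochondrial carriers, split, with 4 higher, 3 lower and a median log2 difference of 0.007. Over all probe sets 13.8% were higher and 11.4% lower. The higher genes were SLC25A36, a pyrimidine nucleotide carrier, SLC25A24, the calcium-regulated ATP-magnesium and phosphate carrier, SLC25A20, the carnitine-acylcarnitine carrier, and SLC25A14, a relative of the uncoupling proteins. The lower genes were SLC25A30, also related to the uncoupling proteins, SLC25A1, the citrate carrier, and SLC25A6, an ADP/ATP carrier. SLC25A36 stood at 148, 97.8 and 165 in SAL60 and 254, 376 and 242 in MB60, and of its 9 methylene blue arrays 8 lay above every saline array. It was 1.75-fold higher (0.81 ± 0.17, adjusted p = 0.0013), and 0.56 with the 3' to 5' ratio as a covariate (adjusted p = 0.0533).

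SLC25A24 stood at 289.7, 179 and 233 in SAL30 and 331, 374 and 279 in MB30. At 60 min it was 205, 155 and 155 against 306, 353 and 293. The 180 min groups were 188, 224 and 223 against 342, 346 and 247. The 2 treatments did not overlap at 60 or 180 min, and at 30 min the lowest methylene blue array lay just under the highest saline array. The log2 difference was 0.61 ± 0.11 over the 3 times (adjusted p = 0.000423) and 0.84 ± 0.19 at 60 min (adjusted p = 0.0284). SLC25A20 differed by 0.37 ± 0.10 (adjusted p = 0.0113) and did not pass with the 3' to 5' ratio as a covariate. Of its 9 methylene blue arrays 7 lay above every saline array. SLC25A14 differed by 0.35 ± 0.12 (adjusted p = 0.0368), with 1 of 9 above, and did not pass under 13 of 43 alternatives, quantile normalization, median centring and 9 leaving out a single array among them.

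SLC25A30 stood at 298, 328 and 245 in SAL30 and 166, 261 and 139.7 in MB30. In the 60 min groups it was 218, 252 and 237 against 197, 135 and 110.3. The 180 min groups were 277, 257 and 272 against 172, 134 and 211. It was lower on every array at 60 and 180 min and on 2 of 3 at 30 min. The log2 difference was -0.63 ± 0.11 (adjusted p = 0.000331), a 1.55-fold lower level, and nearly the same at each time, at -0.62, -0.65 and -0.62.

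Of the ADP/ATP carriers SLC25A6 fell. It stood at 6815, 6666 and 6319.8 in SAL180 and 4263, 4104 and 4504 in MB180, with no overlap. Its log2 difference was -0.62 ± 0.14 at that time (adjusted p = 0.0243) and -0.41 ± 0.08 over the 3 times (adjusted p = 0.000895). SLC25A4, the isoform known from heart and muscle, ran from 1726 to 2143 with a median of 2028 over the saline arrays and from 1614 to 2079 with a median of 1831 over the methylene blue arrays, a difference of -0.10 ± 0.07 (adjusted p = 0.3). Whether these isoforms differ from each other in their response was not tested. SLC25A1 was 1518, 956 and 677 in SAL30 and 480.4, 734 and 511 in MB30, with the highest value on SAL30 replicate 1. Its log2 difference at 30 min was -0.80 ± 0.21 (adjusted p = 0.031), which did not pass without that array (adjusted p = 0.196).

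Of the 13 metal carriers 1 rose and 2 fell, where 13.8% of all probe sets rose and 11.4% fell. SLC11A1, NRAMP1, which moves divalent metals out of the phagosome of macrophages and microglia, stood at 30.9, 19.8 and 21.6 in SAL30 and 53.7, 53.8 and 72.7 in MB30. Over all times it ran from 19.8 to 43.9 with a median of 30.2 with saline and from 40.7 to 72.7 with a median of 53.8 with methylene blue, with 7 of 9 methylene blue arrays above every saline array. The log2 difference was 0.63 ± 0.15 (adjusted p = 0.00369). This gene was dim, with a mean of 25.9 over the other 21 arrays, under the filter's 29.5, so it entered the test only through the methylene blue arrays, as 1 other member (SLC27A6, looked up after its values were seen) did. The 3 microglial markers summed to 699 to 1086 on the methylene blue arrays and 746 to 2253 on the saline arrays, and of these TYROBP differed by -0.52 ± 0.15 (adjusted p = 0.0112), and the part of microglia in the SLC11A1 and SLC2A5 differences was not tested.

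SLC11A2, the iron transporter DMT1, differed by -0.34 ± 0.11 (adjusted p = 0.033) and did not pass under 14 of 43 alternatives. SLC39A7, a zinc carrier of the endoplasmic reticulum and Golgi, ran from 419 to 599 with a median of 562 with saline and from 339 to 522 with a median of 416 with methylene blue. Of its methylene blue arrays 5 were below every saline array, and the log2 difference was -0.32 ± 0.09 (adjusted p = 0.0101). SLC39A7 did not pass with the 3' to 5' ratio as a covariate or without the 5 arrays that stood apart. SLC39A14, a zinc and iron carrier, differed by 0.16 ± 0.12 (adjusted p = 0.355), SLC39A2 by 0.49 ± 0.20 (adjusted p = 0.0768) and SLC30A3 by 0.30 ± 0.22 (adjusted p = 0.345).

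Among carriers of ions and pH, SLC12A4, the potassium-chloride cotransporter KCC1, fell and SLC9A5, the neuronal sodium-proton exchanger NHE5, rose. SLC12A4 stood at 307, 161 and 158 in SAL30 and 115, 102 and 112 in MB30. Over all times 8 of 9 methylene blue arrays lay below every saline array, and the log2 difference was -0.58 ± 0.13 (adjusted p = 0.00221), or -0.43 without the 5 arrays that stood apart (adjusted p = 0.0314). SLC9A5, a dim gene, ran from 19.7 to 54.2 with a median of 35.9 with saline and from 36.8 to 92.4 with a median of 75.7 with methylene blue. Its log2 difference was 0.64 ± 0.20 (adjusted p = 0.0207). It did not pass with a pseudocount of 1, with quantile normalization or with p-values adjusted over all comparisons together. The scaffold SLC9A3R1 differed by -0.35 ± 0.11 (adjusted p = 0.0158). This scaffold did not pass with the 3' to 5' ratio as a covariate, without the 5 arrays that stood apart or with adjustment over all comparisons together. The sodium bicarbonate cotransporter SLC4A4, known from astrocytes, ran from 9.39 to 93.7 with a median of 38.1 with saline and 10.8 to 186 with a median of 54.3 with methylene blue, a log2 difference of 0.37 ± 0.31 (adjusted p = 0.392).

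The 10 SLC35 genes, a family known for nucleotide sugar carriers, had 1 gene higher and 2 lower, beside 13.8% and 11.4% of all probe sets. SLC35A3, which brings UDP-N-acetylglucosamine into the Golgi, stood at 61.3, 53.3 and 59.8 in SAL30 and 97.3, 111 and 94.3 in MB30, with no overlap. At 60 min it was 75.9, 66.4 and 54.0 against 97.0, 97.0 and 71.0. The 180 min groups were 48.2, 49.1 and 51.3 against 72.2, 88.0 and 63.1. The lowest MB60 array lay within the saline range, and at 180 min there was no overlap. The log2 difference was 0.49 ± 0.11 over the 3 times (adjusted p = 0.00228), and 1.03 ± 0.19, 0.86 ± 0.19 and 0.66 ± 0.19 against CA0, where the saline groups had 0.38 ± 0.19, 0.51 ± 0.19 and 0.20 ± 0.19 with no adjusted p under 0.616. SLC35B2, which carries the sulfate donor PAPS, differed by -0.37 ± 0.09 (adjusted p = 0.00546) and SLC35F6 by -0.31 ± 0.09 (adjusted p = 0.0145). Neither passed with the 3' to 5' ratio as a covariate (adjusted p = 0.0852 and 0.122). A second probe set of SLC35F6 did not fall, as given further on.

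In the remaining families SLC23A3, an orphan member of the ascorbate carrier family, rose and SLC46A1, the proton-coupled folate transporter, fell. SLC23A3 stood at 247, 288 and 261 in CA0 and 411, 458 and 464 in MB30. It stood at 335, 398 and 429.6 in MB60 and 426, 371 and 407 in MB180, all above the control arrays. Over the saline arrays it ran from 248 to 397 with a median of 329, with 7 of 9 methylene blue arrays above all of them. The log2 difference from saline was 0.36 ± 0.08 (adjusted p = 0.00261). SLC46A1 differed by -0.34 ± 0.12 (adjusted p = 0.0372) and did not pass under 13 of 43 alternatives. Its second probe set did not fall, as given further on. SLC22A6, the organic anion transporter OAT1, stood at 167, 188 and 147 in MB30 against 125, 103 and 111 in SAL30, with no overlap, and its mean difference of 0.27 ± 0.10 just missed the threshold (adjusted p = 0.0501).

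At single times fewer genes passed. The arrays of the 2 treatments did not overlap for 18, 21 and 22 of the 92 genes at 30, 60 and 180 min (19.6%, 22.8% and 23.9%). The share over all probe sets is not given here for single times, so these counts are not read as a result about the members. Methylene blue and saline differed for 6 of 92 genes after 30 min, where 4.09% of all probe sets passed (2.4% higher, 1.69% lower). After 60 min there were 2, beside 1.52% (0.726% higher, 0.798% lower), and after 180 min 4, beside 1.9% (1.28% higher, 0.619% lower). The genes at 30 min were SLC2A4, SLC11A1 and SLC35A3, higher, and SLC12A4, SLC25A1 and SLC38A9, lower. Of these SLC11A1 entered the test only through the methylene blue arrays. The 60 min genes were SLC25A24, higher, and SLC38A9, lower, and the 180 min genes SLC1A4, SLC2A4 and SLC3A1, higher, and SLC25A6, lower. With the 3' to 5' ratio as a covariate the counts were 1, 0 and 0, and in fits to the compared groups alone 0, 0 and 0. At 30 min SLC35A3 did not pass under 31 of 42 alternatives, SLC12A4 under 26 of 43, SLC11A1 under 18 of 42, SLC38A9 under 17 of 43, SLC25A1 under 7 of 43 and SLC2A4 under 1 of 42. At 60 min SLC38A9 did not pass under 10 of 43 and SLC25A24 under 7 of 43. At 180 min SLC3A1 did not pass under 26 of 43, SLC2A4 under 9 of 42, SLC25A6 under 6 of 43 and SLC1A4 under 5 of 42. Median centring gave 1 up and 4 down after 30 min, 1 up and 2 down after 60 min and 2 up and 3 down after 180 min. Quantile normalization gave 1 up and 3 down after 30 min. In each of the 25 genes that passed over all times the difference had the same sign at all 3 times. These genes were selected by the mean of the same 3 differences, which favours a shared sign. No member passed the test of whether the difference varied between times, 0 of 92, where 0% of all probe sets did. The unadjusted p of that test was under 0.05 for 3 genes, SLC26A6, an anion exchanger, SLC15A2, the peptide transporter PEPT2, and SLC25A17, the peroxisomal cofactor carrier, as for 2.88% of all probe sets.

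Over all 10 groups together 16 of the 92 genes differed, 17.4%, where 15.3% of all probe sets did. They came from the SLC25 family (5 genes of 20), SLC35 (3 of 10), SLC2 (2 of 6) and SLC1, SLC3, SLC9, SLC11, SLC23 and SLC38 (1 each). The SLC11 gene, SLC11A1, entered the test only through the methylene blue arrays, where it was high. The lowest adjusted p-values of this F test were 0.000159 for SLC2A4, 0.00195 for SLC1A4, 0.00219 for SLC25A24 and 0.00238 for SLC35A3. SLC25A33 was 2405, 1917 and 1829 in SAL180 and 1872, 1908 and 2019 in MB180 but 1661, 1677 and 1349.5 in SAL30 and 1395, 1332 and 1316 in MB30, with an F test adjusted p of 0.019. The 180 min arrays of both treatments were above all 30 min arrays. SLC2A5 was lowest in CA30 and highest in SAL30 and SAL180 (F test adjusted p = 0.0155).

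**Figure D4:**
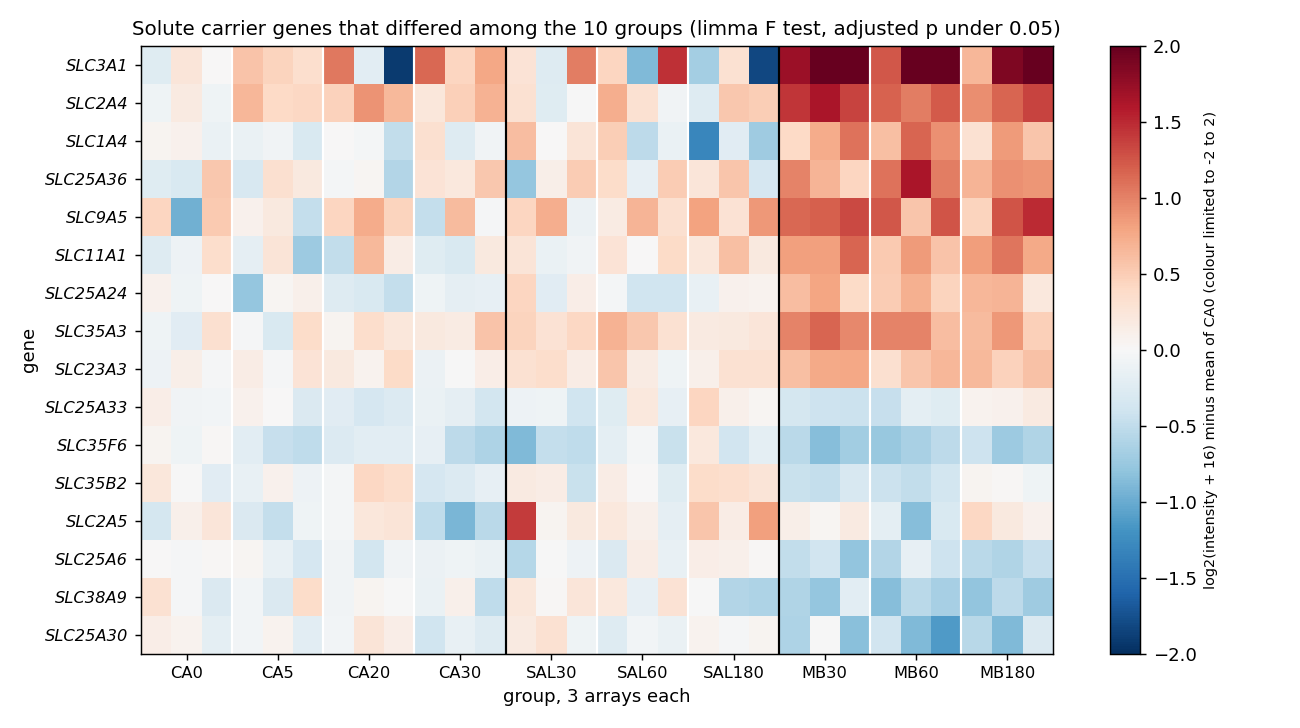
Log2(intensity + 16) minus the mean of CA0 (colour, limited to -2 to 2) for the 16 solute carrier genes that differed among the 10 groups (rows, ordered by the difference between methylene blue and saline) on each of the 30 arrays (columns, 3 per group). The 9 columns at the right, the methylene blue arrays, carry most of the strong colour, and SAL30 replicate 1 stands out in SLC2A5. SLC11A1 entered the test only through the methylene blue arrays.

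A gene's probe sets did not always move together. Of the 92 genes, 25 had 2 or more tested probe sets, and in 12 of these all differences between methylene blue and saline had the same sign while in 13 they did not. SLC38A1 and SLC38A9 had probe sets that passed in opposite directions. SLC35F6 and SLC46A1, lower by their brightest probe set, each had a second one that was higher without passing. Its medians with saline and methylene blue were 66.1 and 82.0 for SLC35F6 and 33.3 and 38.4 for SLC46A1. For SLC38A9 the brightest probe set fell by 0.59 and the other rose by 0.32 ± 0.10 (adjusted p = 0.0201), running from 59.8 to 82.1 with a median of 72.2 with saline and from 62.2 to 123 with a median of 89.2 with methylene blue. For SLC38A1 the other probe sets gave 0.04 ± 0.15 (adjusted p = 0.864) and 0.56 ± 0.19 (adjusted p = 0.033). The files do not say which transcript each probe set reads, so the direction of these genes depends on the probe set.

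In 5 genes, SLC1A1, SLC3A1, SLC15A2, SLC23A3 and SLC33A1, at least 2 probe sets passed in the same direction, all higher. In SLC1A1, SLC15A2 and SLC33A1 these were not the brightest one. SLC1A1 gave 0.71 ± 0.13 (adjusted p = 0.000553) and 0.61 ± 0.17 (adjusted p = 0.00984) beside 0.21 ± 0.09 for its brightest. SLC15A2 gave 1.04 ± 0.18 (adjusted p = 0.000293) and 0.52 ± 0.11 (adjusted p = 0.00116) beside 0.14 ± 0.09. SLC33A1 gave 0.66 ± 0.15 (adjusted p = 0.0033) and 0.35 ± 0.11 (adjusted p = 0.0185) beside 0.02 ± 0.10. The second probe set of SLC3A1 gave 0.65 ± 0.18 (adjusted p = 0.0092), and that of SLC30A3 gave 0.89 ± 0.18 (adjusted p = 0.00107). The second probe set of SLC7A7, a light chain of cationic amino acid carriers named after its values were seen, gave 0.67 ± 0.14 (adjusted p = 0.00146) beside -0.16 ± 0.15. Counting a gene when any of its probe sets passed gave 30 genes in place of 25.

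**Figure D5:**
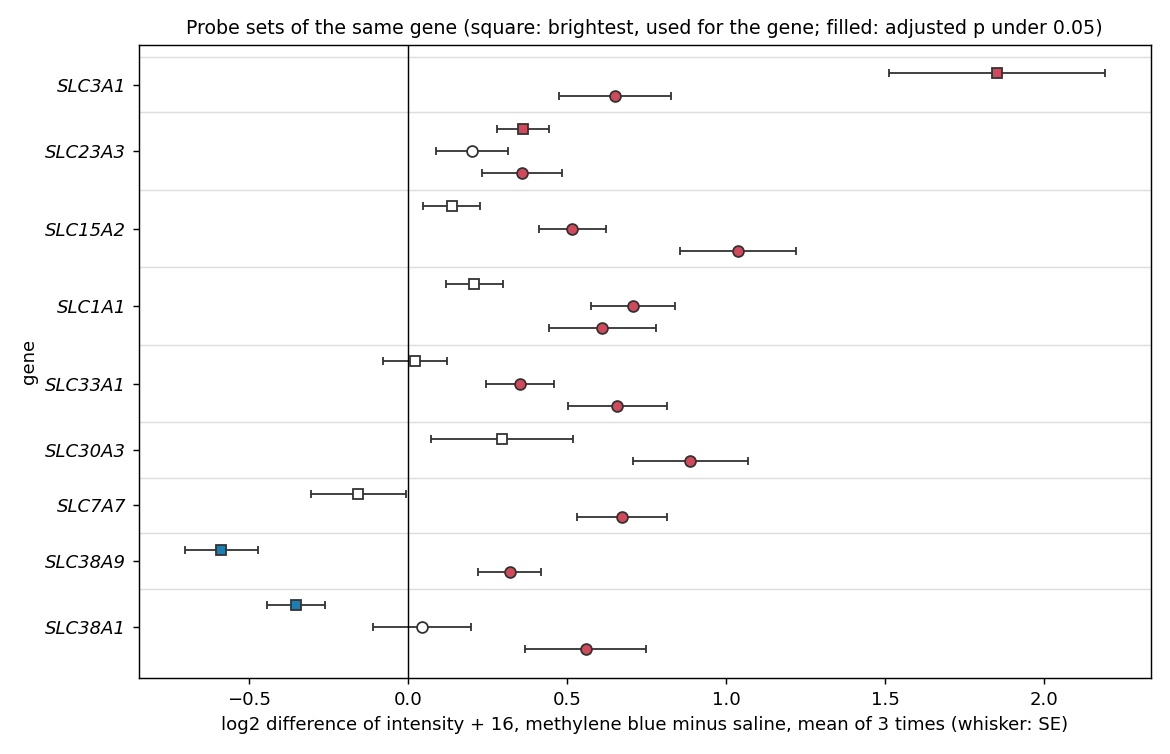
Log2 difference of intensity + 16 between methylene blue and saline, mean of the 3 times, with its SE (horizontal axis), for each tested probe set of 9 solute carrier genes (vertical axis); squares mark the brightest probe set, used for the gene elsewhere, and filled symbols passed at a limma adjusted p under 0.05. In SLC38A1 and SLC38A9 filled symbols lie on both sides of 0.

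The genes that work beside the carriers were read from lists chosen with earlier results known. Of the SLCO and ABC transporters 6 of 14 were on the array and 5 were tested. SLCO3A1 fell with methylene blue (-0.45 ± 0.13, adjusted p = 0.0112), and SLCO2B1, an organic anion carrier of brain endothelium, fell at 180 min after saline against CA0 (-0.79, adjusted p = 0.015). None of the 5 tested ion pump genes (ATP1B1, ATP1B3, ATP2A2, ATP2B1 and ATP2C1), which set the gradients that drive the coupled carriers, passed between methylene blue and saline, with the lowest adjusted p at 0.0793 for ATP2B1 (0.52 ± 0.22). Of 9 tested partner genes 1 rose and 1 fell, where 13.8% of all probe sets rose and 11.4% fell. Glutamine synthetase (GLUL), which makes the glutamine that SLC38 carriers move, differed by -0.46 ± 0.14 (adjusted p = 0.0196), and lactate dehydrogenase A (LDHA) by 0.48 ± 0.15 (adjusted p = 0.02). Neither the chaperone of monocarboxylate carriers BSG (0.24 ± 0.14, adjusted p = 0.21) nor hexokinase HK1 (0.07 ± 0.07, adjusted p = 0.492) passed.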

How the data were processed

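Each of the 30 deposited tables gave 1 intensity per probe set, made with GCOS per the submitters' processing notes, whose version is not given in the sources used here. The arrays' trimmed means (2% off each end) were 300.05 to 300.06, so the deposited intensities had already been scaled to a common target. After removal of 124 control probe sets 23999 remained, of which 10110 had 1 symbol, 157 several and 13732 none. Intensities were used as log2(intensity + 16), so fold changes of dim genes are understated, and probe sets below the 30th percentile of the mean were left out. This percentile lay at an intensity of 29.5 and left 16799 probe sets. limma 3.58.1 (R 4.3.3) fitted 10 group means with an intensity trend, and p-values were adjusted by Benjamini-Hochberg within each comparison, at 0.05. An exact permutation test of 3 arrays against 3 cannot give a p below 0.1 and was not used.

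The members, the roles and the related gene lists were chosen with earlier results of these data known. Probe sets of a gene were compared separately. Genes were named if they passed in a comparison (at most 10 per comparison, by size of change), if they had the smallest F test p of a family with 3 or more tested genes, if they were among the 3 lowest p-values of a comparison in which fewer than 5 members passed, or if they belonged to a set of 30 transporters best known in brain. This named 43 genes, and other names are marked. RefSeq (Sscrofa11.1) gene IDs matched 116 of the 118 genes. SLC23A3 was read from probe sets listing 1 symbol under 2 gene IDs. The fit was tested on simulated data. Alternatives changed the pseudocount (1 and 64), the filter (none, 50th percentile), the scaling (quantile, median centring), the trend, array weights, the p adjustment over all comparisons together, the probe set, the groups fitted, the 3' to 5' ratio as a covariate and a replicate block, and left out each of the 30 arrays in turn. The probe set was changed for the counts of genes alone, not for the results of single genes. Leaving out the 5 arrays that stood apart was chosen after seeing the data. Replicate numbers did not pair the arrays: over 135 same-numbered pairs the correlation of deviations from the group means ran from -0.376 to 0.365.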

Additional observations from a re-analysis of the deposited data

How the results depend on the processing

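Of 67 pairs of a named gene and a comparison that passed, 67 kept their direction in every setting and 17 passed in every setting. These settings kept the brightest probe set of each gene. Other probe sets of SLC38A1 and SLC38A9 passed in the opposite direction between methylene blue and saline, as given above. No solute carrier gene passed against CA0 at 5, 20 or 30 min of arrest, or for the difference between times, in any setting, and none at 30, 60 or 180 min after saline except 1 gene at 30 min with p-values adjusted over all comparisons together.

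Counts of genes that passed moved most in the comparisons at single times. Against CA0 the counts at 30, 60 and 180 min of methylene blue were 11, 9 and 10. They were 4, 3 and 7 with the 3' to 5' ratio as a covariate, 7, 6 and 5 with adjustment over all comparisons together, 7, 6 and 5 with the 50th percentile filter, 22, 15 and 7 with median centring, 9, 5 and 3 in a fit to the compared groups alone, 18, 15 and 13 when any probe set counted, 13, 11 and 16 with array weights, and 10, 13 and 6 with quantile normalization. Against saline at the same times the counts were 6, 2 and 4. They were 1, 0 and 0 with the covariate, 5, 5 and 5 with adjustment together, 3, 2 and 2 with the 50th percentile filter, 0, 0 and 0 in the compared groups alone, 5, 3 and 5 with median centring, 9, 2 and 6 with any probe set, 7, 3 and 9 with array weights, 3, 2 and 3 with a pseudocount of 1, 6, 5 and 4 with a pseudocount of 64, 5, 3 and 3 without the trend, 4, 2 and 3 without a filter, 4, 2 and 3 with quantile normalization, and 2, 0 and 2 without the 5 arrays that stood apart. Over all times 25 genes passed against saline, 14 with the covariate, 18 with adjustment together, 18 without the 5 arrays and 29 with median centring. The shares of all probe sets that passed were 25.2%, 9.52%, 14%, 14.9% and 28.9% in the same order. For saline against untreated arrest the count of 1 became 0 with quantile normalization, median centring, the compared groups alone or without the 5 arrays, 2 with adjustment together and 3 with array weights. For any difference among the groups the count of 16 became 6 with the covariate, 11 with the 50th percentile filter, 13 without the 5 arrays, 22 with median centring and 23 with array weights or any probe set. For the other comparisons the share of all probe sets under each setting is not given, here or above. Their shifts are thus not read as results about the members, and the same holds for the replicate block and for single arrays left out. The cause of the shifts was not tested.

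With a replicate block the counts were 10, 9 and 10 against CA0, 2, 1 and 3 against saline at the single times, 25 over all times, 1 for saline against arrest and 15 among the groups. Of 30 arrays 8 correlated best with their own number, where 10 would by chance, so the block carries no pairing.

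Leaving out 1 array gave 4 to 12, 5 to 12 and 2 to 11 genes against CA0, 1 to 7, 0 to 4 and 0 to 6 against saline at single times, 21 to 30 over all times, 0 to 3 for saline against arrest and 15 to 20 among the groups. For methylene blue against saline at 30 min the count was 1 without SAL30 replicate 1 or MB30 replicate 1, 2 without CA5 replicate 1, CA30 replicate 1, SAL30 replicate 2, SAL60 replicate 1 or MB30 replicate 3, and 3 without CA20 replicate 1 or 3, CA30 replicate 2, SAL60 replicate 3, SAL180 replicate 1 or MB30 replicate 2. At 60 min it was 4 without SAL30 replicate 1 and 0 without SAL60 replicate 2 or 3 or MB60 replicate 2 or 3. At 180 min it was 0 without SAL180 replicate 1 or 3 or MB180 replicate 2, and 1 without MB180 replicate 3. For saline against arrest it was 2 without CA5 replicate 3 or MB30 replicate 1 and 3 without SAL30 replicate 3.

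Precision is limited by having 3 arrays in a group, and dim genes such as SLC2A4, SLC9A5 and SLC11A1 lie close to the filter.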

Other observations

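In genes with several tested probe sets the brightest and the dimmer ones differed in direction between methylene blue and saline. Of the 25 brightest solute carrier probe sets 4 rose and 4 fell, with a median log2 difference of 0.016. Of the 32 dimmer ones 12 rose and 0 fell, with a median of 0.312 and 81.2% above 0. The same split was present over all genes with several probe sets. There 9.73% of 1552 brightest probe sets rose and 16.3% fell, while 25.3% of 2088 dimmer ones rose and 4.65% fell, with medians of -0.04 and 0.186. The methylene blue arrays had the lower 3' to 5' ratios, and the part of that ratio in this split was not tested.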
